A study of Mus musculus with 81 samples.

Results

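ERVB is the name given in the mouse repeat annotation to a group of endogenous retroviruses related to the betaretroviruses, the genus of mouse mammary tumour virus. The loci described here were those whose species name begins with ERVB in the 4 deposited tables of mouse endogenous retrovirus (mERV) expression, a rule that used names and no measured value. They were 7949 of 970384 long terminal repeat (LTR) loci (0.819%), and they covered 4007.9 kb, which was 1.26% of the bases of all LTR loci. Of the 680 species in the tables, 21 were ERVB. A species name with the ending -int marks the body of the provirus (8 species, 2856 loci), and the other 13 species are the terminal repeats (5093 loci).

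A complete betaretroviral copy holds the genes gag, pro, pol and env between an LTR at each end. The LTR upstream carries the promoter and the LTR downstream the polyadenylation signal. Reverse transcription starts from a host lysine tRNA that anneals to a primer-binding site directly behind the upstream LTR. Most copies in a genome are fragments, or single LTRs left behind when the body was lost by recombination. In the male germline, DNA methylation is erased in primordial germ cells and laid down again in fetal prospermatogonia, and retrotransposons are among the main targets of that wave and of the piRNA pathway that guides it.

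The RNA came from testes of E18.5 mouse fetuses. All animals carried the OG2 transgene, in which regulatory sequence of Pou5f1 drives EGFP in germ cells. The F0 dams were given 50 nM tributyltin (TBT), an organotin that activates the nuclear receptors PPARγ and RXR, or the vehicle DMSO in the drinking water from before mating, through pregnancy and until weaning, and their F1 and F3 descendants were sampled as fetuses. Sorting gave 3 populations: P4 and P5, both EGFP-positive germ cells that differ in side scatter, and P6, EGFP-negative somatic cells, which are a mixture of all testis cells that lack the reporter. In F1, P4 had 5 DMSO and 7 TBT libraries, P5 had 4 and 7, and P6 had 5 and 7. In F3, each population had 4 DMSO and 5 TBT libraries. Methylated DNA of P6 was captured in 3 DMSO and 4 TBT libraries of F1 and in 5 and 7 of F3. The labels do not say which libraries came from separate litters, so that the p-values below measure the spread between these libraries. The numbers of F1 germ-cell libraries have 2 parts, and the first part takes 3 values in DMSO libraries (43, 44 and 48) and 2 in TBT libraries (45 and 47). What it stands for is not given in the sources used here. Libraries that share it were entered as separate values, and with their means over each first number in their place no ERVB locus or species differed between TBT and DMSO in F1 P4 or P5 at a false discovery rate of 0.05.

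The 62 RNA libraries held 246520 to 8161548 reads in LTR loci. Reads in LTR loci outside annotated genes made up 1.83% to 2.51% of these in F1 P4, 3.84% to 7.34% in F1 P5 and 1.19% to 1.52% in F3 P6. Some libraries stood apart. The F1 P6 TBT libraries 7 and 8 had 6.79% and 6.95%, against 0.999% to 1.82% in the other F1 P6 libraries. Among F3 germ cells this share passed 10% in P4 TBT libraries 5 and 9 and in P5 DMSO libraries 1 and 2 and P5 TBT libraries 5, 8 and 9, where it reached 31.1%. Values without these libraries are given beside several of the results they enter. Markers of germ cells, summed over the LTR loci that lie in 12 marker genes (9 of which hold such loci), were at 6565 CPM (reads scaled to a common library size, as deposited) or more in every F1 germ-cell library and at 41.1 CPM or less in every F1 P6 library. In F3 they were at 127 to 13732 CPM in germ cells, lowest in P5 TBT library 5, and in P6 at 184 and 167 CPM in DMSO libraries 3 and 4 and at 14.4 to 23.8 CPM in the other 7.

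Sequences are printed for copies to which the results below return, and for a copy of ERVB4_2-I_MM-int and of ERVB3_1-I_MM-int. The site that primes reverse transcription can so be compared between copies. Among them are a pair read in somatic cells, a copy read in germ cells alone, and other ERVB species. Each sequence is the first 90 bases of an internal region in GRCm38/mm10, 5′ to 3′ on the strand of the element. The 7 bases that match or nearly match the start of a lysine tRNA primer-binding site (TGGCGCC) are in capitals. The strand was taken from the end of the region at which these bases lie, since the files give none.
ERVB4_1B-I_MM-int in the annotated lincRNA gene Gm35533, chr10:100143953-100144042, minus strand: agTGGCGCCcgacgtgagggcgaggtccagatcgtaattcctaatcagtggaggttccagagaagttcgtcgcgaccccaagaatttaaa
ERVB4_1B-I_MM-int outside genes, chrY:59667058-59667147, minus strand: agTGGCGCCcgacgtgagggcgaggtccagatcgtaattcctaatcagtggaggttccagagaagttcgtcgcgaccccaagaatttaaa
ERVB4_1B-I_MM-int in an intron of Cntn5, chr9:10290796-10290885, plus strand: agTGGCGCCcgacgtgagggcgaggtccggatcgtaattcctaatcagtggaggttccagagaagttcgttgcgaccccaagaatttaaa
ERVB4_1B-I_MM-int outside genes, read in germ cells alone, chr15:45480773-45480862, plus strand: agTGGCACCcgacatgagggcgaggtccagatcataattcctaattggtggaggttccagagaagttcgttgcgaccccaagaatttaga
ERVB4_1-I_MM-int in an insertion that spans the gene Gm45889, chr7:142283326-142283415, plus strand: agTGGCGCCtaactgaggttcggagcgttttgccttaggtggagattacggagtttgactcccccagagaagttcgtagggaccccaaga
ERVB4_2-I_MM-int, chr19:8011434-8011523, minus strand: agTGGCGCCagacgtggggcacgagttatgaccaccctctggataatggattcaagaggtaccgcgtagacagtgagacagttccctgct
ERVB3_1-I_MM-int, chr3:129758045-129758134, plus strand: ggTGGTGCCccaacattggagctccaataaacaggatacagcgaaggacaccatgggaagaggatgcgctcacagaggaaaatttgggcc

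The chr10 and chrY copies were identical over these 90 bases (100% identity), the Cntn5 copy matched them at 97.8% and the chr15 copy at 92.2%. The chr15 copy carried TGGCACC and the ERVB3_1-I_MM-int copy TGGTGCC in place of TGGCGCC. Aligned to the chr10 copy, the ERVB4_1-I_MM-int, ERVB4_2-I_MM-int and ERVB3_1-I_MM-int copies had 60.6%, 57.7% and 54.5% identity. The motif TGGCGCC, searched on either strand, lay within 12 bases of an end in 69 of 731 ERVB internal regions of at least 1 kb (9.44%) and in 376 of 25548 internal regions of all other species (1.47%). The species differed, with 7 of 30 regions in ERVB2_1A-I_MM-int (23.3%), 34 of 237 in ERVB4_1B-I_MM-int (14.3%), 24 of 174 in ERVB4_2-I_MM-int (13.8%), 2 of 57 in ERVB5_1-I_MM-int (3.51%), 2 of 151 in ERVB4_1-I_MM-int (1.32%) and none in ERVB2_1-I_MM-int, ERVB3_1-I_MM-int and ERVB4_3-I_MM-int (8, 31 and 43 regions). In ERVB4_3-I_MM-int the count depended on the window, with 4 of 43 regions within 40 bases of an end (9.30%), where the counts of the other 7 species stayed as given and those of all ERVB and all other regions were 9.99% and 1.54%. The longest run of codons without a stop was 204 in ERVB4_1B-I_MM-int, against 915 in ERVB4_1-I_MM-int, 867 in ERVB4_2-I_MM-int and 861 in ERVB2_1A-I_MM-int. No ERVB4_1B internal region of this size therefore held an uninterrupted frame of the length found in these other species.

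ERVB loci lay mostly between genes. Outside annotated genes were 6257 of them (78.7%), against 64.5% of all LTR loci, 930 lay in introns and 107 in exons of protein-coding genes, and 655 in genes of other kinds. They were frequent on the sex chromosomes, with 884 on Y (11.1%, against 4.15% of all LTR loci) and 758 on X (9.54%, against 5.97%). ERVB5_2-LTR_MM had 267 of its 519 loci on Y (51.4%) and ERVB7_2B-LTR_MM 258 of 695 (37.1%). The largest species was ERVB4_1B-I_MM-int, with 1352 loci over 744.8 kb, a longest locus of 4283 bp and 167 loci on Y. In the 62 libraries 5706 ERVB loci had at least 1 read and 2243 had none.

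ERVB reads made up 0.429% to 0.583% of all reads in LTR loci in the F1 libraries, 0.423% to 0.496% in F3 P6, and 0.498% to 1.53% in F3 germ cells, where the libraries rich in reads outside genes were the highest. Most of these reads lay in genes. The median share of ERVB reads within protein-coding genes was 84.7% in F1 P4, 71.0% in F1 P5 and 62.4% in F1 P6, and in F3 it was 78.7%, 55.8% and 62.4%. The 10 highest loci held 49.8% of the ERVB level in F1 P4 and 35.5% in F1 P5. In these counts a read from an ERVB locus in an intron or exon cannot be told apart from RNA of the gene around it. Of 326 ERVB loci in protein-coding genes with a mean of at least 5 reads, 27 (8.28%) had the same read numbers in every library as another LTR locus within 100 kb, whereas none of the 130 outside genes did.

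For several LTR species a single genic locus made the level. In F1 P5, the ERVB4_1B-LTR_MM locus in an exon of Psmd2, a subunit of the proteasome, had 529 CPM, 62.1% of its species. The ERVB5_2-LTR_MM locus in an intron of Psmb1, another proteasome gene, had 266 CPM (59.2%). The ERVB7_2-LTR_MM locus in an intron of Cox6c, a subunit of cytochrome c oxidase, had 241 CPM (48.1%) in P5 and 306 CPM (56.1%) in F1 P6. Among internal species, 1 locus of ERVB4_2-I_MM-int in an intron of Fkbp6, a germ-cell co-chaperone of the piRNA pathway, had 376 CPM in F1 P5 (72.1%). In contrast, 67.6% of ERVB4_3-I_MM-int, 55.6% of ERVB5_1-I_MM-int and 36.1% of ERVB4_1B-I_MM-int in F1 P5 lay outside genes.

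**Figure D1:**
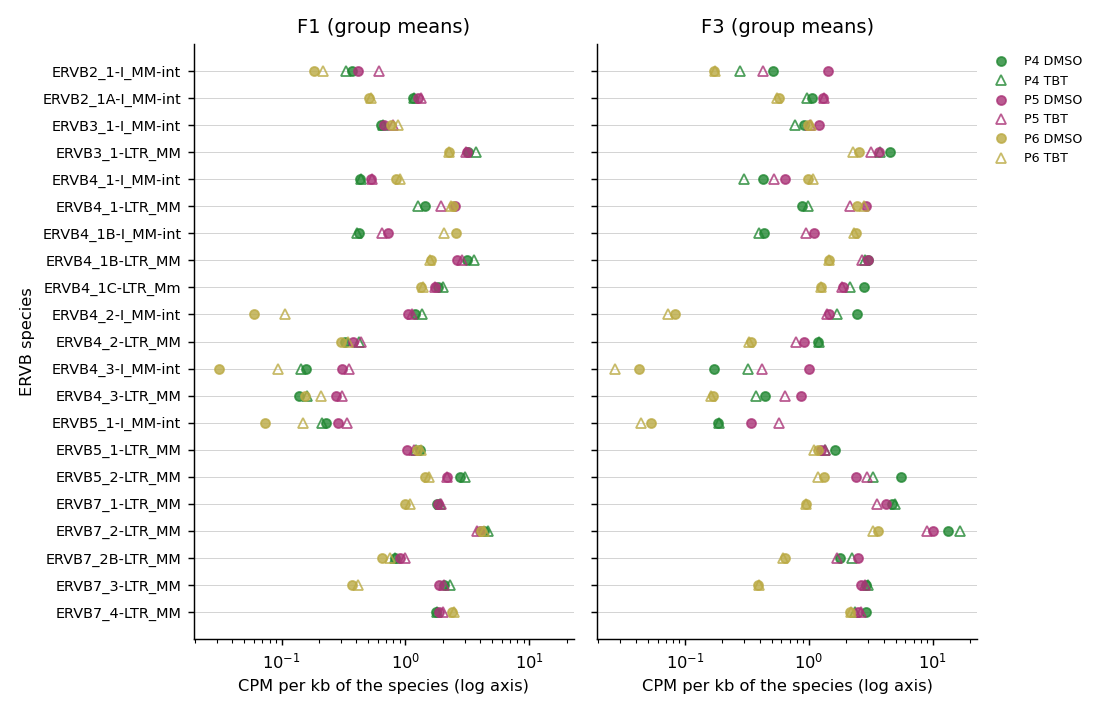
Mean level of each of the 21 ERVB species per kilobase of its loci (CPM per kb, log scale) in the sorted populations of F1 and F3, by exposure. ERVB4_1B-I_MM-int sits above 2 CPM per kb in P6 and at 1.11 or below in germ cells, whereas ERVB4_2-I_MM-int and ERVB4_3-I_MM-int are at 0.107 or below in P6 and higher in germ cells.

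The ERVB species differed in the population that carried them. Germ-cell and somatic tables were normalised separately, so levels in them are set side by side without a test. Among the ERVB species in P6, ERVB7_2-LTR_MM ranked first per kb of sequence, at 4.08 CPM per kb in F1 DMSO libraries and 3.60 in F3. Most of its F1 P6 level was the locus in the Cox6c intron given above. Next in P6 came ERVB4_1B-I_MM-int, at 2.56 and 2.38. In P4 ERVB4_1B-I_MM-int was at 0.420 CPM per kb in F1 and 0.435 in F3, and in P5 at 0.729 and 1.11. It made up 35.6% of the ERVB level in F1 P6 and 9.85% in F1 P5. ERVB4_1-I_MM-int had the same order, with 0.429, 0.532 and 0.832 CPM per kb in DMSO libraries of F1 P4, P5 and P6, and 0.429, 0.636 and 0.987 in F3. ERVB4_2-I_MM-int was higher in germ cells, with a level in DMSO libraries of 567 CPM ± 86.8 (SD, n = 5) in F1 P4, 498 ± 23.0 (n = 4) in F1 P5 and 28.6 ± 5.05 (n = 5) in F1 P6. Most of the F1 P5 level was the locus in the Fkbp6 intron given above, which cannot be told apart from RNA of that gene. ERVB4_3-I_MM-int was at 23.9 CPM ± 7.31, 46.9 ± 6.19 and 4.74 ± 2.44 in DMSO libraries of F1 P4, P5 and P6. For ERVB7_3-LTR_MM, with its highest locus in an intron of the piRNA gene Tdrd9, these groups were at 218 CPM ± 28.3, 201 ± 10.8 and 39.6 ± 5.08.

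For ERVB4_1B-I_MM-int every P6 library lay above every germ-cell library of both generations. The 5 DMSO libraries of F1 P6 were at 1648, 1627, 1943, 2189 and 2140 CPM, and the 7 TBT libraries spanned 1425 to 1728 with a median of 1449. In F3 P6 the 4 DMSO libraries were at 2060, 1651, 1591 and 1779 CPM and the 5 TBT libraries at 1968, 1793, 1593, 1543 and 1709. F1 P5 DMSO libraries had 515, 620, 637 and 401 CPM, and the 7 TBT libraries 352 to 568 with a median of 469. F1 P4 lay lower, at 279.9 to 333 CPM in DMSO and 269.8 to 360 in TBT libraries, so that all P5 libraries but 1, a TBT library at 352 CPM, lay above all P4 libraries. In F3 P5 the spread was wide, with 1213, 949, 644 and 494 CPM in DMSO and 249, 655, 556, 1060 and 984 in TBT libraries. The highest 4 of these were DMSO 1 and 2 and TBT 8 and 9, which were also among the libraries with over 10% of reads outside genes, and the lowest was TBT 5, which had the fewest reads.

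**Figure D2:**
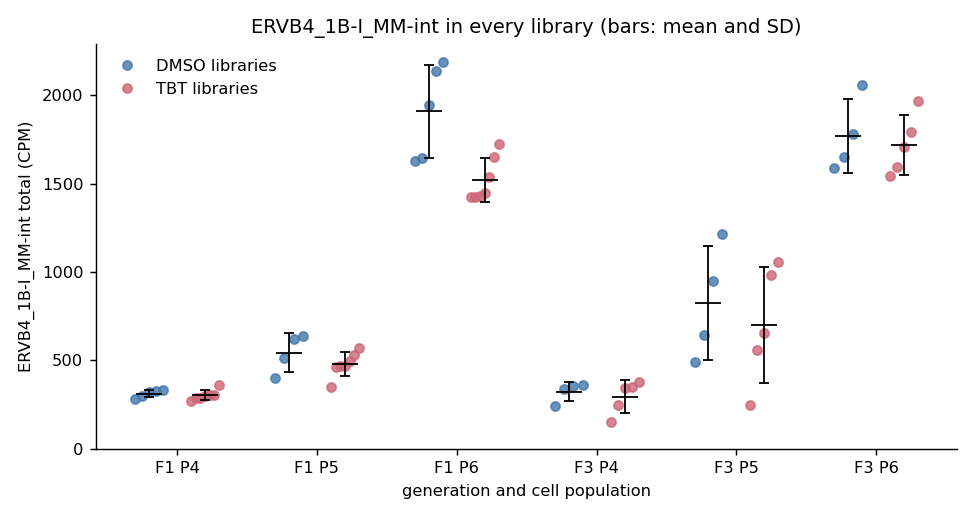
Total of ERVB4_1B-I_MM-int (CPM, linear scale from 0) in each RNA library, grouped by generation, population and exposure, with the group mean and SD. P6 libraries lie between 1425 and 2189 CPM and germ-cell libraries between 149 and 1213.

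Few copies held most of the somatic level. How reads that match several copies were counted is not given in the sources used here, so the CPM of a copy may hold reads of near-identical copies, and the shares below are those of the table. Loci no more than 1500 bp apart were joined into insertions, and 579 insertions outside protein-coding genes held at least 1 kb of ERVB sequence with an internal region. Of these, 33 had no read in any library, 28 had a mean of at least 5 CPM in germ cells, 13 in somatic cells, and 8 in both. The 5 highest ERVB4_1B insertions in somatic cells lay at chr10:100139290-100144548, chrY:59662383-59667667, chr3:6338681-6343769, chr3:5880835-5885905 and chr16:5223151-5228228. Together they held 62.6% of the ERVB4_1B-I_MM-int level in F1 P6 and 64.3% in F3 P6. In germ cells they held 5.70% and 13.2% in F1 P4 and P5 and 5.43% and 17.7% in F3, where the P5 share was 10.5% in the 4 libraries with no more than 10% of reads outside genes. Each was built of an LTR, an internal part, a piece annotated as RMER16A3, a second internal part and an LTR. The copies whose first bases are printed above belong to the chr10 and chrY insertions, and over their whole length the internal parts that face the upstream LTR in the chrY and both chr3 insertions were 98.2% to 98.7% identical to the chr10 part.

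The chr10 insertion, which overlaps exons and introns of the lincRNA gene Gm35533, was at 722 CPM ± 106 (605 to 845, n = 5) in F1 P6 DMSO libraries and at 509 ± 78.2 (392 to 633, n = 7) in TBT libraries. In F3 P6 it was at 653 ± 109 (n = 4) and 616 ± 91.8 (n = 5). The chrY insertion, outside genes, had a mean of 335 CPM over somatic and 14.2 over germ-cell libraries (11.2 without the 7 germ-cell libraries of over 10% of reads outside genes). Next to these ERVB4_1B copies stood an ERVB4_1 copy at chr7:142282827-142291092, which spans the gene Gm45889 and had a mean of 228 CPM in somatic and 12.8 CPM in germ-cell libraries. Reads were uneven along each insertion. In the chr10 insertion the 1136 bp at its upstream end (chr10:100142907-100144042) held a mean of 475 CPM in F1 P6 DMSO libraries.

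**Figure D3:**
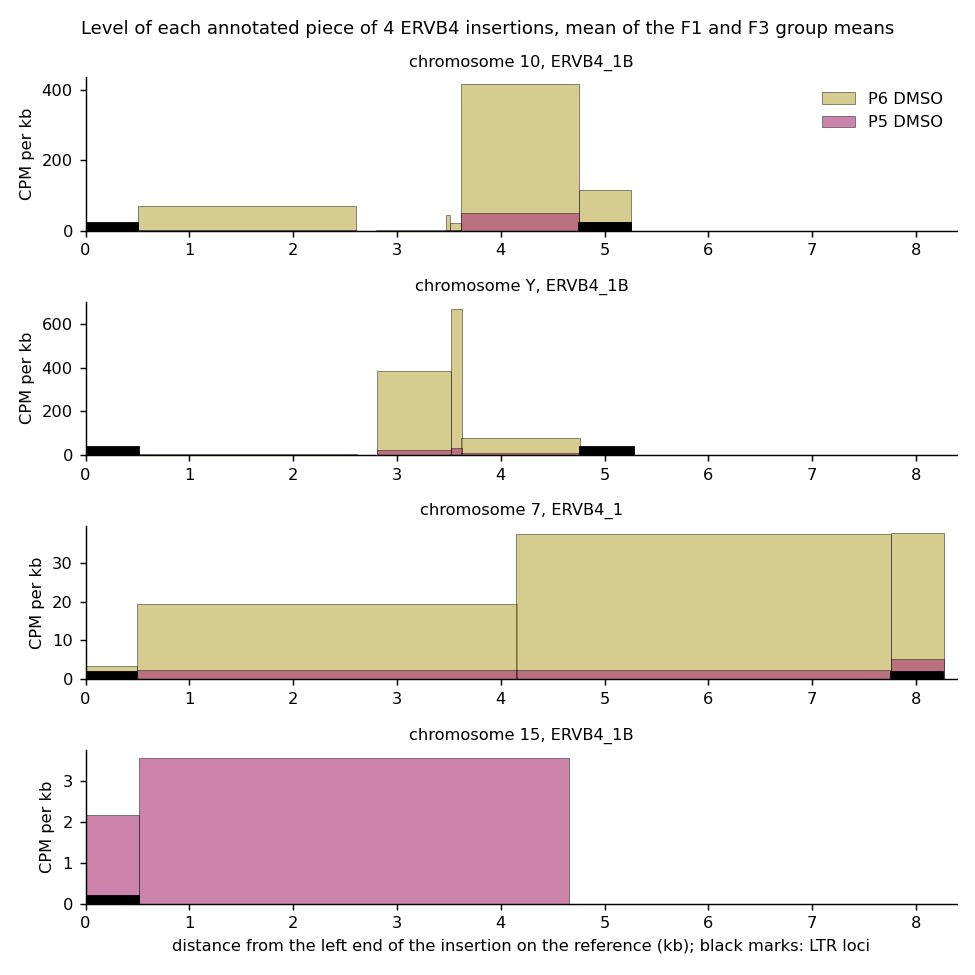
Level along 4 insertions (CPM per kb of each annotated piece) against distance from the insertion start in kb, for P6 and P5 DMSO libraries (mean of the F1 and F3 group means); black marks show LTRs. The chr10, chrY and chr7 insertions are read in P6, and the chr15 insertion is read in P5 with P6 at 0.

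Other insertions were read in germ cells. The chr15 insertion at chr15:45480257-45484912, an ERVB4_1B copy outside genes, had a mean of 18.9 CPM over germ-cell libraries and was listed at 0 in every somatic library. Its group means were 9.97 and 10.3 CPM in DMSO and TBT libraries of F1 P4 and 19.4 and 15.8 in F1 P5. In F3 they were 14.03 and 44.6 CPM in P4 and 12.3 and 27.0 in P5 (3.03 in P5 DMSO without library 3, at 39.97 CPM), and P4 TBT library 5 alone was at 137 CPM. Without the libraries of over 10% of reads outside genes the mean over germ cells was 15.1 CPM and that of F3 P4 TBT libraries 20.1. The F3 P5 means were then in the opposite order, at 23.7 CPM in DMSO (n = 2) and 19.4 in TBT libraries (n = 2). The ERVB4_3 insertion at chr9:38952278-38958628 had 10.3 CPM in germ cells and 0.343 in somatic cells, the ERVB2_1A insertion at chr10:15260846-15266419 had 9.67 and 0.0929, and the ERVB4_1B insertion at chr13:62008267-62013357 had 10.6 and 1.63. An ERVB5_1 insertion at chr17:36314122-36318863 was read in both, at 15.3 and 7.13 CPM. Without those 7 germ-cell libraries these 4 insertions were at 6.01, 6.04, 5.31 and 12.7 CPM over germ cells, in the order given. A short insertion in an intron of Gm8955 (chr3:14432414-14433550), with pieces of ERVB2_1A-I_MM-int and ERVB4_1B-I_MM-int, was at 14.9 CPM over germ cells and listed at 0 in somatic cells.

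Among ERVB loci outside genes, to which this ranking was limited, single LTRs led the germ-cell list per kb. The highest was an ERVB7_2-LTR_MM at chr1:95499175-95499505, with 488 CPM per kb over germ-cell and 151 over somatic libraries. It was at 89.7 CPM ± 9.21 (n = 5) and 101 ± 23.3 (n = 7) in DMSO and TBT libraries of F1 P4. Per kb it was at 242 CPM in F1 germ cells and 802 in F3, and at 502 in F3 without the libraries of over 10% of reads outside genes. The ERVB7_3-LTR_MM at chr10:130527825-130528242 had 99.9 CPM per kb in germ cells and 5.54 in somatic cells, and the ERVB7_1-LTR_MM at chr5:6612218-6612548 had 97.8 and 0.0714. The first was at 62.9 CPM per kb in F1 germ cells, at 147 in F3 and at 129 in F3 without the libraries of over 10% of reads outside genes. The second was at 48.9 in F1, 160 in F3 and 113 in F3 without them, and the tables of F1 and F3 were normalised separately. The ERVB7_3-LTR_MM at chr8:75244627-75245034 and the ERVB7_2-LTR_MM at chr2:51873486-51873848 were at 34.5 and 26.4 CPM per kb in germ cells (20.1 and 12.4 in F1, 53.0 and 44.3 in F3, and 39.3 and 34.3 in F3 without those libraries) and at 0 in every somatic library. The somatic list, also of loci outside genes only, was led by internal pieces of ERVB4_1B on Y. Of these, chrY:59665192-59665901 had 342 CPM per kb in somatic and 12.4 in germ-cell libraries.

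The first question of the design was whether ancestral TBT exposure went with a different ERVB level in any population. No ERVB locus and no ERVB species passed a false discovery rate (FDR) of 0.05 in limma in any of the 6 comparisons of TBT with DMSO. In F1 P4, 347 ERVB loci were tested, 33 had an unadjusted p under 0.05 and the smallest FDR was 0.582, while 0% of all tested LTR loci were called. In F1 P5 they were 657, 80 and 0.0879 (0.0106% of all loci called), and in F1 P6 303, 36 and 0.418 (0.00341%). In F3 P4 they were 629, 22 and 0.870 (0%), in F3 P5 854, 18 and 0.99994 (0%), and in F3 P6 364, 30 and 0.293 (0.0343%, with 0.02% higher and 0.0143% lower). At the unadjusted threshold these were 9.51%, 12.2% and 11.9% of the tested ERVB loci in F1 P4, P5 and P6, against 7.09%, 6.89% and 3.68% of all loci, and 3.497%, 2.11% and 8.24% in F3, against 1.65%, 1.01% and 7.96%. The median log2 fold change of the tested ERVB loci was 0.07, 0.06 and -0.07 in F1 P4, P5 and P6 and -0.26, -0.12 and 0.02 in F3. Other tools called a few loci: DESeq2 called 6 in F1 P5 and 1 each in F1 P6 and F3 P4 (0.114%, 0.0125% and 0.0139% of all loci), and edgeR's likelihood ratio test called 1, 10 and 2 in F1 P4, P5 and P6 (where 0.0971%, 0.319% and 0.0488% of all loci were called), 26 in F3 P5 (3.03%) and 1 in F3 P6 (0.32%).

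Loci whose DMSO and TBT libraries did not overlap were also few. In F1 P4, 1 ERVB locus was higher and 1 lower in every TBT library (0.236% and 0.151% of all loci). In F1 P5, 7 were higher and 1 lower (0.493% and 0.392%), and in F1 P6, 2 and 5 (0.0988% and 0.218%). In F3 they were 2 and 3 in P4 (0.141% and 1.76%), 3 and 2 in P5 (0.166% and 0.262%) and 4 and 4 in P6 (1.76% and 1.14%). The locus with the smallest p in F1 P4 was an ERVB2_1A-I_MM-int of 7037 bp at chr6:129848530-129855566, in an intron of Klra17. Its 5 DMSO libraries were at 1.81, 8.01, 8.55, 1.72 and 4.80 CPM and its 7 TBT libraries at 0 to 1.04 with a median of 0.512. The groups did not overlap, and the FDR was 0.582 in limma. The TBT mean of this locus, 0.585 CPM, lay below the limit of the filter on low values (1.21 CPM). It thus entered the test through its DMSO libraries alone, had to differ, and is given as values only. In F1 P5 the ERVB4_2-I_MM-int locus at chr9:109541040-109542939, in an exon of the non-coding gene Gm42756, was at 0 in all 4 DMSO libraries and at 0.835 to 6.51 CPM in TBT libraries. It passed the filter on low values through its TBT libraries alone, so it had to differ and is given as values only.

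At the level of the 21 species limma called 0% of all species in each comparison, and an unadjusted p below 0.05 was found for 3, 2 and 3 ERVB species in the F1 populations (P4, P5, P6) and for 2, 0 and 1 in those of F3. Of all species, 7.68%, 4.79% and 6.36% lay below it in F1 and 3.02%, 0% and 9.37% in F3. The smallest p in F1 P6 belonged to ERVB4_1B-I_MM-int, with a mean of 1909.6 CPM ± 264.8 (n = 5) in DMSO and 1522 ± 123 (n = 7) in TBT libraries. The groups overlapped, since DMSO libraries 1 and 12 lay below TBT libraries 7 and 10. The log2 fold change was -0.32 (SE 0.080, unadjusted p = 0.00143, FDR 0.658 in limma), the FDR was 0.253 in edgeR's quasi-likelihood test, and it was 0.00465 in edgeR's likelihood ratio test and 0.0059 in DESeq2. Without TBT libraries 7 and 8 it was -0.34 (FDR 0.454 in limma). In F3 P6 the same species had a log2 fold change of -0.04 (-0.11 without DMSO libraries 3 and 4, the highest in germ-cell markers), and in the germ-cell groups -0.05 and -0.17 in F1 and -0.20 and -0.32 in F3, none of them past the threshold. The F3 P4 value was above 0 under 9 of 12 other settings, up to 0.24, and the F3 P5 value was 0.11 and 0.10 without the libraries of fewest reads and those of over 10% of reads outside genes.

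The difference in means in F1 P6 lay mainly in the 5 leading insertions. Their summed internal level was 1259.8 CPM ± 195 (1060.2 to 1469, n = 5) in DMSO and 908 ± 110 (759 to 1078, n = 7) in TBT libraries, whereas all other ERVB4_1B-I_MM-int loci were at 649.8 ± 79.97 and 614 ± 55.4. In F3 P6 the leading insertions were at 1146 ± 171 (n = 4) and 1102 ± 142 (n = 5). Over the chr10, chrY, chr7 and both chr3 insertions, the 5 highest of any ERVB species, 21 of 22 pieces tested in F1 P6 had a fold change below 0 and none passed, with a smallest FDR of 0.999 among them. In F3 P6, 10 of 23 were below 0. Pieces of 1 insertion are not independent values, here and below. Of all tested ERVB loci, 122 of 303 in F1 P6 and 189 of 364 in F3 P6 were above 0. Marker levels in the same F1 P6 libraries differed by gene. LTR loci of the Leydig cell genes Cyp11a1 and Cyp17a1, which make steroids, had means of 45.1 and 21.7 CPM in DMSO and 91.7 and 44.6 in TBT libraries. The other somatic markers with LTR loci had slightly lower means in TBT libraries. They were Gata4 (769 and 715), Inha (506 and 450), Nr5a1 (174 and 167), Pdgfra (84.7 and 82.0), Nr2f2 (74.3 and 72.6), Dhh (59.0 and 56.5) and Wt1 (22.8 and 19.7). The germ-cell marker sum had medians of 24.9 CPM in DMSO and 37.4 in TBT libraries. Their part in the result was not tested. The chrY piece at chrY:59666000-59667147 was at 88.7 CPM (80.6 to 95.7) in F1 P6 DMSO and 61.2 (46.97 to 72.5) in TBT libraries, which did not overlap, and at 85.4 and 73.9 in F3 P6. The copy in the Cntn5 intron, with its first bases printed above, was at 26.2 CPM (20.04 to 36.4) and 13.4 (9.25 to 18.7) in F1 P6, a log2 fold change of -0.96 (SE 0.19, FDR 0.418 in limma), and at 19.2 and 22.4 in F3 P6.

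In F1 germ cells the same insertions were also lower on average in TBT libraries, and so was the summed level of somatic marker genes. The leading insertions were at 28.9 CPM ± 18.0 (4.35 to 43.6, n = 5) in DMSO and 9.35 ± 6.42 (2.99 to 20.8, n = 7) in TBT libraries of P4, and at 110 ± 60.2 (41.0 to 187, n = 4) and 41.1 ± 12.7 (19.05 to 61.8, n = 7) in P5. Of the pieces of the 5 highest insertions, 5 of 7 tested in F1 P4 and 14 of 14 in F1 P5 were below 0, and none passed (smallest FDR 0.616 and 0.159). Of all tested ERVB loci, 196 of 347 and 349 of 657 were above 0 there. In F3, 7 of 10 pieces in P4 and 3 of 16 in P5 were below 0, while 265 of 629 and 380 of 854 tested ERVB loci were above 0. The leading insertions were at 22.7 CPM ± 36.5 (n = 4) and 11.8 ± 6.99 (n = 5) in DMSO and TBT libraries of F3 P4 and at 122 ± 106 and 143 ± 78.5 in P5. Without DMSO library 1 the P4 DMSO mean was 4.58 CPM, below that of TBT, and without the libraries of over 10% of reads outside genes the P5 means were 32.6 (n = 2) and 90.2 CPM (n = 2). LTR loci in 9 of 19 somatic marker genes summed to 29.9 to 282 CPM in F1 P4 DMSO libraries (median 139) and 22.3 to 79.3 (median 32.9) in TBT, and to 62.2 to 191 (median 167) and 39.3 to 102 (median 69.5) in P5. The other 10 marker genes, Amh, Sox9 and Star among them, hold no LTR locus in the tables. In P6 these sums were 1581 to 1903 CPM in DMSO and 1577 to 1825 in TBT libraries. In F3 the medians had the same order in P4, at 26.6 CPM in DMSO and 21.4 in TBT libraries, and the opposite order in P5, at 27.2 and 69.5. The part of somatic RNA in the germ-cell values of these insertions was not tested, and in bulk samples fewer cells of a type and less RNA per cell cannot be told apart.

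**Figure D4:**
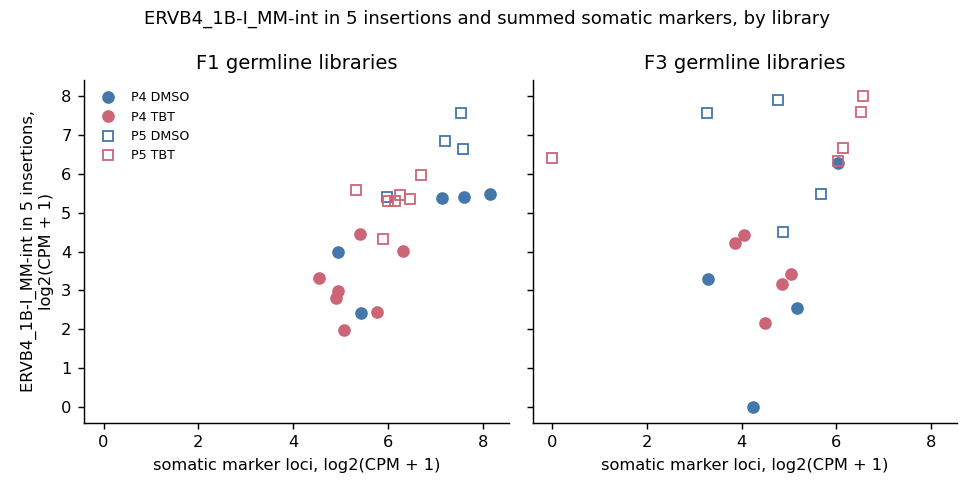
Level of the 5 leading ERVB4_1B insertions (log2 of CPM + 1) against the summed LTR loci of somatic marker genes (log2 of CPM + 1) in each germ-cell library of F1 and F3, by population and exposure. In F1 the TBT libraries of both populations extend lower on both axes than the DMSO libraries.

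Of the LTR species, ERVB3_1-LTR_MM had the smallest p in F1 P4. Its DMSO libraries spanned 129.8 to 147 CPM and its TBT libraries 153 to 176 without overlap, as did 0.301% of all species in this direction, and the log2 fold change was 0.21 (SE 0.058, FDR 0.439 in limma). In F1 P5 its libraries overlapped, at 129 to 143 and 114 to 164 CPM. In F3 P4, ERVB5_2-LTR_MM spanned 938 to 1339 CPM in DMSO and 319 to 906 in TBT libraries, a log2 fold change of -0.82 (SE 0.31, FDR 0.508), which was -0.45 (FDR 0.2996) without TBT libraries 5 and 9, and 2.87% of all species were lower without overlap there. Its locus in the Psmb1 intron, which gave most of that level, was at a log2 fold change of -0.92 (FDR 0.870). The median log2 fold change of all species in F3 P4 was itself -0.41. ERVB4_3-I_MM-int in F1 P6 was at 4.74 CPM ± 2.44 (1.82 to 8.59, n = 5) in DMSO and 14.2 ± 11.6 (5.44 to 33.8, n = 7) in TBT libraries (log2 fold change 1.33, SE 0.47, FDR 0.725), and without TBT libraries 7 and 8 the TBT mean was 7.51 ± 1.28 (n = 5) and the log2 fold change 0.76 (FDR 0.744).

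The second comparison was between the germ-cell populations. In F1, 10 of the 21 ERVB species rose and 7 fell in P5 relative to P4 at an FDR of 0.05 in limma, against 24.1% and 43.4% of all species (67.5% in either direction). The largest rise was that of ERVB4_3-I_MM-int, with a log2 fold change of 1.15 (SE 0.14, FDR 1.68e-07). Its P4 libraries lay at 15.2 to 31.2 CPM and its P5 libraries at 35.7 to 82.5, without overlap, as did 4.52% of all species. ERVB4_1B-I_MM-int rose by 0.70 (SE 0.074, FDR 2.06e-08), ERVB4_3-LTR_MM by 0.94, ERVB2_1-I_MM-int by 0.70, ERVB4_1-LTR_MM by 0.62 and ERVB5_1-I_MM-int by 0.57. Smaller rises, of 0.17 to 0.29, were found for ERVB4_1-I_MM-int, ERVB7_2B-LTR_MM, ERVB3_1-I_MM-int and ERVB2_1A-I_MM-int. The 7 that fell were ERVB5_2-LTR_MM (-0.43), ERVB4_1B-LTR_MM (-0.30), ERVB4_2-I_MM-int (-0.24), ERVB7_2-LTR_MM (-0.21), ERVB3_1-LTR_MM (-0.19), ERVB4_1C-LTR_Mm and ERVB5_1-LTR_MM (-0.16 each). Under scaling to a common total or by median ratios, where the median of all species moved from -0.07 to 0.09 and 0.07, 13 rose and 2 fell, against 48.2% and 18.7% of all species with a common total and 42% and 18.1% with median ratios. Summed over loci of at least 5 reads' worth on average, 3 rose and 10 fell (11.4% and 64.4% of all species), and ERVB4_1-I_MM-int, ERVB5_1-I_MM-int and ERVB7_2B-LTR_MM then had values of -0.02, -0.25 and -0.16.

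Single loci were compared by their place in or outside genes. In all, 111 of 435 ERVB loci rose and 59 fell in F1 (25.5% and 13.6%, against 17.6% and 21.6% of all loci). Outside genes 52 of 122 rose and 2 fell (42.6% rose, against 42.5% of all loci outside genes), and in protein-coding genes 48 of 279 rose and 53 fell (17.2% and 19.0%, against 16.2% and 22.8%). In genes of other kinds 11 of 34 rose and 4 fell (32.4% and 11.8%, against 27.8% and 6.32%), and outside genes the share that fell was 1.64% against 3.18%. Of the loci that rose, 60 of 111, and 39 of 52 outside genes, had a P4 mean below the limit of the filter (1.14 CPM) and so entered the test through P5 alone. Such a locus had to differ, and its fold change depends on the added unit. The 3 loci without overlap between P4 and P5 libraries that had the highest fold changes were all of this kind and are given as values. The ERVB4_1B-I_MM-int copy in the Cntn5 intron was at 0 in 10 of 12 P4 libraries, with 0.493 CPM as the highest, and at 1.01 to 5.98 CPM in P5. An ERVB4_2-I_MM-int outside genes at chr8:71814251-71816433 was at 0 in all 12 P4 libraries and at 0.168 to 7.14 CPM in P5, and an ERVB7_4-LTR_MM at chr17:6438112-6438185 in an intron of Gm26848 was at 0 to 0.534 and 1.21 to 6.18 CPM. Of 11 pieces of the 5 highest somatic insertions that were tested 10 rose, 3 of them with a P4 mean below the limit, and the groups of all 10 overlapped. The summed somatic markers also had higher medians in P5 than in P4, at 167 against 139 CPM in DMSO and 69.5 against 32.9 in TBT libraries, and the germ-cell markers lower ones, at 7062 against 11209 and 8336 against 12602. Their part in these rises was not tested. Among the loci that fell without overlap, the 3 largest changes lay in introns: an ERVB7_2B-LTR_MM of Maob, a monoamine oxidase (-0.83), an ERVB5_2-LTR_MM of Ube2n, a ubiquitin-conjugating enzyme (-0.68), and an ERVB4_1B-LTR_MM of Psmd1, a proteasome subunit (-0.67).

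Summed over loci outside genes alone, 17 of 20 ERVB species totals rose in F1 and none fell. Those that rose were all 8 internal and 9 of 12 LTR species, where 93.9% of all species rose and 0.17% fell. The internal species had log2 fold changes of 0.57 to 3.16 with a median of 1.70, and the LTR species of -0.12 to 1.28 with a median of 0.83. ERVB4_2-I_MM-int, which fell as a whole, rose by 2.60 outside genes. Its P4 libraries were at 10.6 to 45.8 CPM in DMSO and 6.75 to 23.7 in TBT, and its P5 libraries at 82.2 to 135 and 58.6 to 157, without overlap. The largest rise was that of ERVB2_1-I_MM-int (3.16), and ERVB4_1B-I_MM-int rose by 1.70, from 66.2 CPM ± 22.0 (n = 5) and 51.8 ± 20.1 (n = 7) in P4 to 197 ± 57.1 (n = 4) and 172 ± 39.7 (n = 7) in P5. P5 libraries also had a larger share of all LTR reads outside genes than P4 libraries (3.84% to 7.34% against 1.83% to 2.51%), and its part in these rises was not tested.

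In F3 the spread between libraries was wider and fewer results passed. Of 21 species, 1 rose and none fell (2.87% and 0.151% of all species). It was ERVB4_1B-I_MM-int, with a log2 fold change of 1.21 (SE 0.29, FDR 0.0187 in limma), and without the libraries of over 10% of reads outside genes this was 0.79 and also past the threshold, while 4 species rose and 6 fell (10.7% and 30.2% of all species). It was no longer called when P5 DMSO library 1 or P5 TBT library 9 was left out. Among loci, 21 of 781 rose and none fell (2.69%, against 1% and 0.0112% of all loci), and 15 of those that rose lay outside genes (3.797% of 395, against 4.47%). Leaving out 1 library gave 11 to 47 loci, with 47 without P5 TBT 5 and 11 without P4 DMSO 3 or P5 TBT 9. Of the 21 loci, 19 entered the test through P5 alone, with a P4 mean below 1.32 CPM, and so did all 15 outside genes. Among them, and without overlap of the groups, were the chrY piece at chrY:59666000-59667147, at 0 in 5 of 9 P4 libraries, with 2.83 CPM as the highest, and at 3.46 to 21.2 CPM in P5, and an ERVB7_2B-LTR_MM at chr15:6044426-6044783, at 0 in 8 of 9 P4 libraries, with 0.492 CPM as the highest, and at 0.803 to 8.14 CPM in P5. Of 13 pieces of the 5 highest insertions 5 rose, 3 of them with a P4 mean below that limit, and the groups of 4 of the 5 overlapped. The somatic marker sums had medians of 26.6 CPM in P4 and 27.2 in P5 in DMSO libraries and of 21.4 and 69.5 in TBT libraries, and their part was not tested. Outside genes the 8 internal species all rose, by 1.33 to 3.21 with a median of 2.15, and none of 12 LTR species did (range -0.57 to 0.79), where 59.5% of all species rose. Without the libraries of over 10% of reads outside genes, 6 of 8 internal species rose, no LTR species rose and 2 fell, against 46.4% and 0.508% of all species. The difference between internal and LTR species itself was not tested. TBT and DMSO libraries did not differ in the P5-against-P4 difference at an FDR of 0.05 for any ERVB species in the interaction test of limma, with 2 species at an unadjusted p under 0.05 in F1 and 1 in F3 (9.52% and 4.76%, against 2.41% and 0.302% of all species, with 0% called in each).

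**Figure D5:**
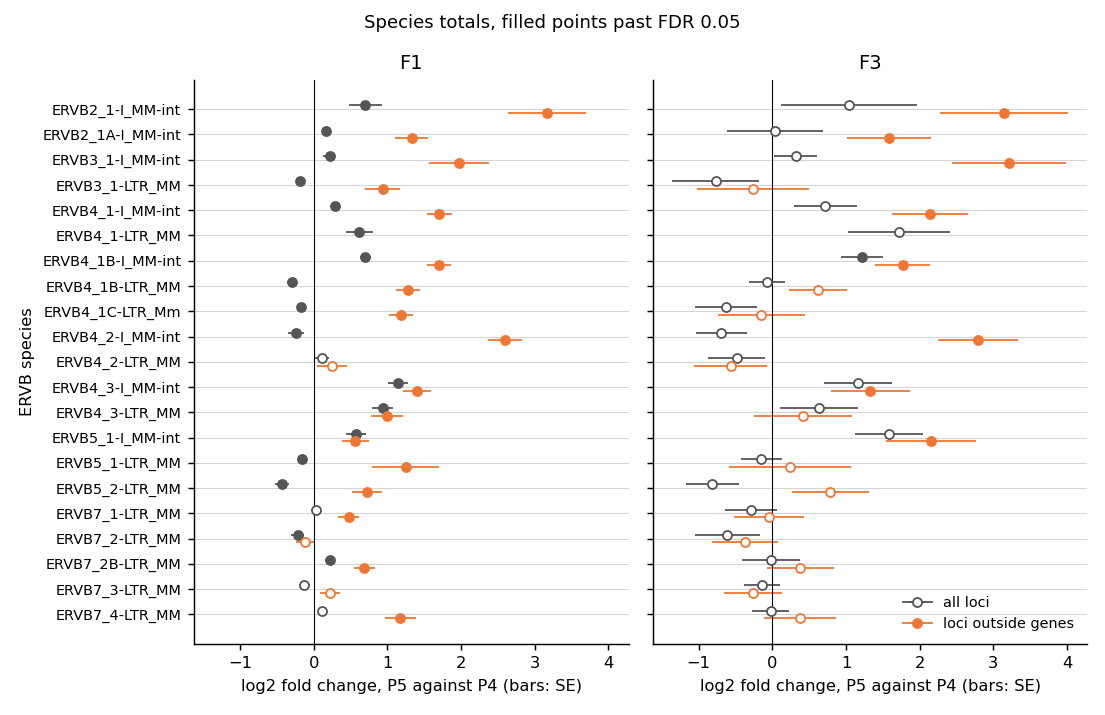
Log2 fold change of P5 against P4 for each ERVB species in F1 and F3, over all its loci and over its loci outside genes; filled symbols passed an FDR of 0.05. In F1, ERVB4_2-I_MM-int moves from -0.24 over all loci to 2.60 outside genes, and in F3 the 8 internal species are filled outside genes and the LTR species are not.

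Methylated DNA of P6 was read in windows of 100 bp, of which the deposited tables hold a part of the genome's. Windows centred in ERVB loci were 223 of 154773 in F1 (0.144%) and 241 of 164382 in F3 (0.147%), and held 0.197% to 0.214% of the counts of F1 libraries and 0.214% to 0.257% of F3. They had 1.47 CpG sites per window in F1 and 1.53 in F3, against 0.818 and 0.813 over all windows. Totals per library were 701493 to 938756 counts in F1 DMSO libraries, 887213 to 1913353 in F1 TBT libraries and 1105120 to 1556376 in F3. With edgeR's quasi-likelihood test no ERVB window of 85 tested in F1 or 113 in F3 passed an FDR of 0.05, where 0.0318% and 0% of all windows did, and 1 and 9 had an unadjusted p under 0.05 (1.18% and 7.96%, against 5.01% and 5.19% of all windows). DESeq2 called none either. The smallest p in F1 was in an ERVB4_1C-LTR_Mm at chr12:96046201-96046300 (log2 fold change 1.01, FDR 0.937). It had 1 to 9 counts in DMSO and 11 to 31 in TBT libraries, not scaled for the larger totals of most TBT libraries. In F3 it was in an ERVB4_1-I_MM-int at chr7:20461901-20462000 (log2 fold change -0.66, FDR 0.914), where the groups overlapped.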

How the data were processed

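RNA of sorted P4, P5 and P6 cells was amplified with an oligo-dT SMART-seq kit. Per the labels and the study's methods, the authors trimmed reads (Trim Galore), aligned them to mm10 (STAR), counted them per RepeatMasker LTR locus with a modified ERVmap and normalised by TMM in edgeR. Their treatment of multi-mapping and spliced reads is not given in the sources used here. The deposited RNA values are a signal, CPM (library-scaled counts) after TMM, and 100% of them came out as whole reads within 0.01 of a read. The deposited values of captured methylated DNA are counts per window. Beside them stands the number of CpG sites of each window.

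Loci, and sums per species, were tested with limma 3.58.1 (trend) on log2(value + 1 unit), where a unit is the worth of 1 read (0.181 to 0.294 CPM), so that fold changes of low loci are understated. Features with a mean of at least 5 units were kept, and p-values were adjusted over all of them by Benjamini-Hochberg (FDR). TBT was compared with DMSO within each population, and P5 with P4 within each generation, with exposure as a covariate. Germ-cell and somatic tables were normalised separately and not tested against each other. Windows were tested with edgeR 4.0.16 (quasi-likelihood, TMM, filterByExpr). edgeR tests on the recovered reads and DESeq2 1.42.0 were alternatives, and scripts were tested on simulated data. Starts in the RNA tables count from 0: 386 of 400 ERVB7_1-LTR_MM loci of over 300 bp then began with TG, and 3 otherwise. Coordinates, genes and sequences follow GRCm38/mm10.

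Named loci were, in each comparison and among loci whose groups did not overlap, up to 3 per direction with the largest change past the threshold or, where none passed, the one of smallest p, and outside genes the 5 highest per kb. Pieces of the highest insertions were named after their values were seen. The members and lists were chosen with earlier results of these data known. Intervals from read numbers would cover counting error only.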

Additional observations from a re-analysis of the deposited data

Results flagged for a closer look

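In 6 of 68 groups of 4 to 10 libraries, 1 library stood farther from the rest than Dixon's 95% limit, and chance alone gives about 1 in 20 groups. The F1 P4 TBT library 47-4 had an ERVB4_1B-I_MM-int total of 359.98 CPM, with the next at 307 CPM. The chr10 insertion was at 63.0 CPM in F3 P4 TBT library 5, with the next at 8.15, and the chr15 insertion at 136.8 CPM in the same library, with the next at 25.8. This library had 11.4% of its reads outside genes. The chrY insertion was at 12.7 CPM in F3 P4 DMSO library 1, with the next at 1.96, and at 2.33 CPM in F3 P4 TBT library 8, with the next at 0.663. The chr7 insertion was at 42.95 CPM in F3 P4 DMSO library 1, with the next at 5.14.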

How the results depend on the processing

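Total reads per library differed most among F3 germ cells, and the loci called there moved with the libraries that entered. Shares in brackets are those of all loci or species called under the same setting. TBT against DMSO, called ERVB loci went from 0 to 1 (F1 P4), 10 (F1 P5), 2 (F1 P6), 26 (F3 P5) and 1 (F3 P6) with edgeR's likelihood ratio test, to 6 (F1 P5), 1 (F1 P6) and 1 (F3 P4) with DESeq2 (0.114%, 0.0125% and 0.0139%), and to 18 (F1 P5) and 3 (F1 P6) without a filter (0.202% and 0.00585%). Called ERVB species in F1 P6 went from 0 to 1 with the likelihood ratio test and 1 with DESeq2 (0.152% each). Leaving out 1 library gave 0 to 4 loci in F1 P5 (0.00329% to 0.0763%; 1 without DMSO 43-5 or TBT 47-5, 4 without DMSO 48-4) and 0 to 3 in F1 P6 (0% to 0.0158%; 3 without TBT 11).

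P5 against P4 in F1, called ERVB loci went from 170 to 332 without a filter (8.61%), 75 with a mean of at least 20 units (60.2%) and 72 in DMSO libraries alone (12.3%), and species from 17 to 7 in DMSO libraries alone (45.2%). Leaving out 1 library gave 155 to 175 loci (36.8% to 40.4%) and 14 to 18 species (63.6% to 68.5%). In F3, species went from 1 to 7 with a common total (19%), 6 with median-ratio scaling (17.7%), 5 without the 4 libraries of fewest reads (P4 TBT 5 and 9, P5 DMSO 2, P5 TBT 5; 24.6%), 10 without libraries of over 10% of reads outside genes (40.9%), 8 for loci outside genes (59.7%), 8 for loci outside protein-coding genes (52.5%), 8 for loci outside genes without those libraries (46.9%), 0 for loci of at least 5 units (1.97%), 3 in DMSO (9.5%) and 0 in TBT libraries alone (0%). Leaving out 1 library gave 0 to 3 species (1.96% to 7.54%; 0 without P5 DMSO 1 or P5 TBT 9, 3 without P5 TBT 5, 2 without P4 DMSO 2). F3 loci went from 21 to 35 with median-ratio scaling (1.6%), 9 without a filter (0.0822%), 6 with a mean of at least 20 units (0.58%), 45 and 51 without the shallow libraries and those rich in reads outside genes (3.78% and 10.1%), and 2 in DMSO libraries alone (0.145%). Leaving out 1 library gave 11 to 47 (0.4% to 3.06%; 47 without P5 TBT 5, 11 without P4 DMSO 3 or P5 TBT 9, 13 without P4 DMSO 2 or 4). The cause of these shifts was not tested. The settings by protein-coding genes, by reads outside genes in F3, by means over first numbers in F1 germ cells and without F3 P6 DMSO 3 and 4 were chosen after seeing the data, and the last 2 left the counts of TBT against DMSO at 0.

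The log2 fold change of ERVB4_1B-I_MM-int, TBT against DMSO in F3 P4, turned from -0.20 to 0.21 (common total), 0.19 (median-ratio scaling), 0.24 (both edgeR tests and DESeq2), 0.16 (without shallow libraries, or those rich in reads outside genes), 0.041 (loci outside genes) and 0.10 (outside protein-coding genes), and without 1 library spanned -0.33 to 0.031 (without TBT 9). In F3 P5 it turned from -0.32 to 0.11 and 0.10 without the shallow libraries and those rich in reads outside genes and spanned -0.54 to 0.014 without 1 library (0.014 without TBT 5), and in F3 P6 it spanned -0.089 to 0.036 (0.036 without DMSO 1). P5 against P4 in F1, over loci outside genes and outside protein-coding genes, values turned to 0.94 and 0.98 for ERVB3_1-LTR_MM, 1.28 and 1.17 for ERVB4_1B-LTR_MM, 1.19 and 1.06 for ERVB4_1C-LTR_Mm, 2.60 and 2.37 for ERVB4_2-I_MM-int, 1.25 and 1.61 for ERVB5_1-LTR_MM, and 0.72 and 0.66 for ERVB5_2-LTR_MM. Over loci of at least 5 units they turned to -0.015 for ERVB4_1-I_MM-int, -0.25 for ERVB5_1-I_MM-int and -0.16 for ERVB7_2B-LTR_MM.

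P4 and P5 libraries share numbers in the labels. Deviations of same-numbered libraries correlated at -0.18 to 0.51 in F1 and -0.36 to 0.59 in F3, not all above 0.1, so the numbers were not taken as pairs. With the number as a block, 204 loci and 16 species were called in F1 (44.8% and 73.5%) and 37 loci and 2 species in F3 (1.93% and 6.04%).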
